A study of Homo sapiens with 12 samples.

Results

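Collagen IV is the network-forming collagen of basement membranes, and the 10 genes described here are its 6 chain genes (COL4A1 to COL4A6) and 4 genes whose products work beside it in the same sheet: the nidogens NID1 and NID2, perlecan (HSPG2) and peroxidasin (PXDN). They were taken by symbol from count tables of 58051 genes, and each symbol named 1 gene. RNA-seq was carried out on 12 libraries of 3 established human renal carcinoma lines, all labelled as clear cell renal cell carcinoma. For 786-O, 1 library came from cells given a miR-29 mimic and 1 from cells given a control mimic. For A-498 there were 2 libraries of each kind, the controls being numbered 1 and 3 in the labels. Further A-498 libraries of this experiment were set aside by the authors over a possible mix-up of labels and were not analysed here. ACHN cells received a miR-29 inhibitor (3 libraries) or a control inhibitor (3 libraries). Every library, controls included, came from cells transfected with 10 nM of a small RNA, and RNA was taken 48 h later. A mimic is a synthetic RNA that adds activity of a miRNA, and an inhibitor blocks the miRNA that the cells make. No line received both agents, so mimic and inhibitor cannot be told apart from the line they were used in.

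Collagen IV chains fold in threes: COL4A1 with COL4A2 in nearly all basement membranes, COL4A3 with COL4A4 and COL4A5 in the mature glomerulus, where faults in these chains cause Alport syndrome, and COL4A5 with COL4A6 in some epithelia. Nidogens bridge the collagen IV and laminin networks, perlecan is a heparan sulfate proteoglycan of the sheet, and peroxidasin makes the sulfilimine bonds that lock collagen IV trimers together end to end. The miR-29 family silences mRNAs by pairing its seed, nucleotides 2 to 8, with complementary letters in their 3′ UTRs, and genes of the extracellular matrix are well known among its targets.

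The mature sequences of the family in RefSeq (GRCh38.p14) are shown with the seed in capitals, since the 3 miRNAs share it and differ only further on.
hsa-miR-29a-3p: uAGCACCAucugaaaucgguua
hsa-miR-29b-3p: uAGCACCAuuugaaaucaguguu
hsa-miR-29c-3p: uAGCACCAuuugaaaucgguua

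Letters complementary to this seed were looked for, on the sense strand, in the 3′ UTR of the reference transcript of each gene (MANE Select, GENCODE v44 on GRCh38). A match to nucleotides 2 to 8 reads TGGTGCT, and TGGTGCTA is its 8-nt form. TGGTGCT was present in 9 of the 10 genes, against 14.1% of all 18780 MANE Select 3′ UTRs. The 9 genes held 13 such matches, of which 5 were 8 nt long and 8 lay within 500 nt of the stop codon. NID2 lacked it and held only GGTGCTA, that is GGTGCT, complementary to nucleotides 2 to 7, followed by an A. The member UTRs ran from 677 nt (NID2) to 4611 nt (COL4A4), and the median over all MANE Select transcripts was 1088 nt. A match is a description of these letters and not a measured binding site. Other coding transcripts can lack it, while reads were counted per gene. The match nearest to the stop codon lay in 2 of 10 coding transcripts with a 3′ UTR for COL4A1, 1 of 8 for COL4A2 and 5 of 5 for COL4A6. Lengths of matches and distances from the stop codon were not set against those of all UTRs.

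The match nearest to the stop codon is printed for each gene with the bases before it on the transcript, 30 nt in all and with the match in capitals, because the later results are set against these letters.
COL4A1: tgactcagctaatgtcacaacaTGGTGCTA
COL4A2: gcgcgtgccaggaagggccatttTGGTGCT
COL4A3: ttgatctacctaggtggagttggTGGTGCT
COL4A4: ctagactgtgctaagagatgtcaTGGTGCT
COL4A5: actttactactgctgccgtcaaTGGTGCTA
COL4A6: tgctgtcctgtttctgtcaagcTGGTGCTA
NID1: tagcattccttaatgttttgtttTGGTGCT
NID2: gtgcatttctatttatatcaaaaGGTGCTA
HSPG2: gacaacggacggacggatgccgcTGGTGCT
PXDN: gacatttcatgacaacgtccagcTGGTGCT

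The capitals lie at chr13:110150326-110150333 for COL4A1 (minus strand, 30 nt after the stop codon) and chr13:110512219-110512225 for COL4A2 (plus strand, 28 nt after it). Those of COL4A4 lie at chr2:227007237-227007243 (minus strand, 82 nt), those of COL4A5 at chrX:108696484-108696491 (plus strand, 106 nt) and those of PXDN at chr2:1634070-1634076 (minus strand, 128 nt). COL4A6 has its match at chrX:108156771-108156778 (minus strand, 222 nt) and NID1 at chr1:235977370-235977376 (minus strand, 491 nt). Of the matches printed, those farthest from the stop codon were those of NID2 at chr14:52004950-52004956 (minus strand, 530 nt), HSPG2 at chr1:21822476-21822482 (minus strand, 834 nt) and COL4A3 at chr2:227313543-227313549 (plus strand, 1673 nt). COL4A3, COL4A4 and PXDN held further matches of TGGTGCT, 1 each in COL4A3 (8 nt long) and PXDN (8 nt long) and 2 in COL4A4.

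**Figure D1:**
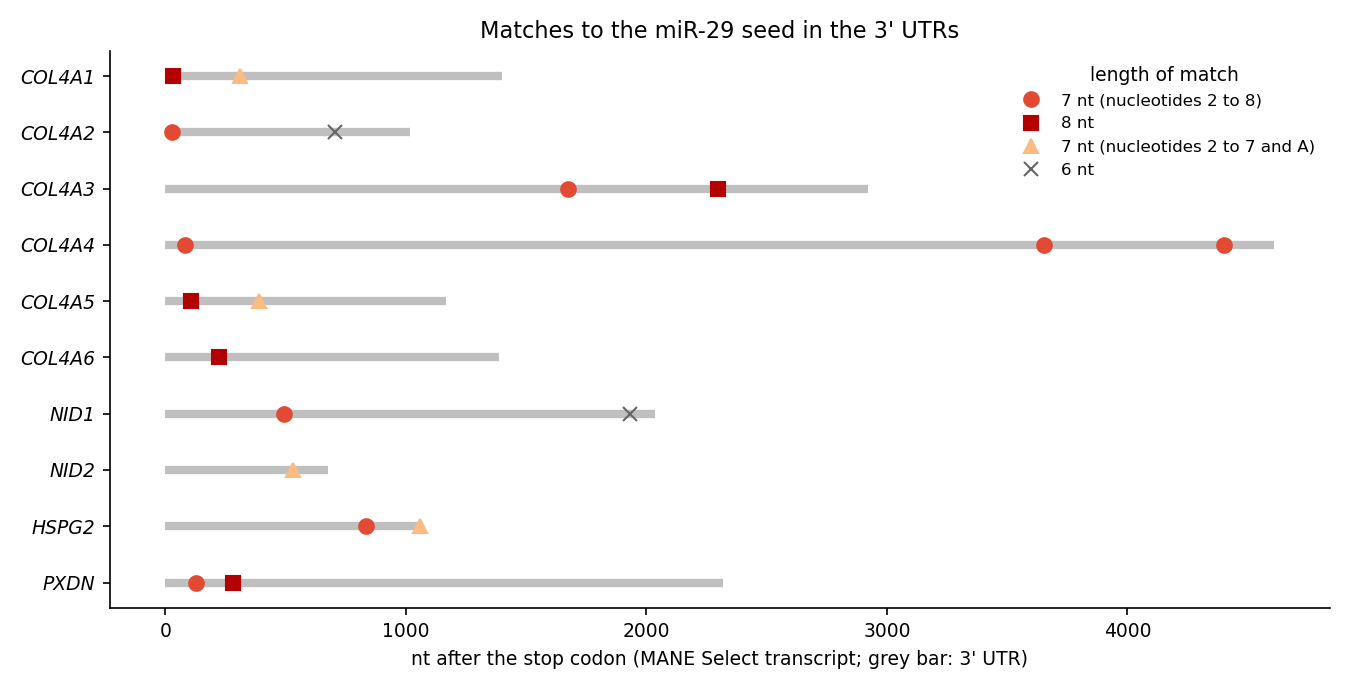
Matches to the miR-29 seed along the 3′ UTR of each of the 10 genes; the horizontal axis is the distance in nt after the stop codon, grey bars are the UTRs and symbols give the length of the match. The first matches of COL4A1, COL4A2, COL4A4, COL4A5, COL4A6 and PXDN sit 28 to 222 nt after the stop codon, whereas those of COL4A3 sit at 1673 and 2299 nt.

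The chain genes lie in pairs that are transcribed away from each other. RefSeq start sites were 127 nt apart for COL4A1 and COL4A2 (chromosome 13), 419 nt for COL4A4 and COL4A3 (chromosome 2) and 380 nt for COL4A6 and COL4A5 (chromosome X). The 126 bases between these COL4A1 and COL4A2 starts (chr13:110307158-110307283, GRCh38, plus strand, COL4A1 to the left) are shown because the pair is compared later. Other starts are annotated, since the pair overlaps by 1346 nt in GENCODE v44. The part of this stretch in the levels was not tested. Capitals mark a CCAAT and a GGGCGG, the letters searched on both strands; no match overlaps another.
COL4A1-COL4A2: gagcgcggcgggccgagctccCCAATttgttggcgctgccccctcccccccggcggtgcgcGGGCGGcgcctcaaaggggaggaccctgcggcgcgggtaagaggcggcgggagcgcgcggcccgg
Of 35116 RefSeq promoters, 34.6% held GGGCGG and 21.1% held CCAAT on either strand in the same length before the start.

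The libraries held between 39919554 and 70027392 reads in genes. The renal epithelial markers PAX8, PAX2, KRT8, KRT18 and CDH16 were present in every group (none of the 5 below 1 CPM), where CPM (counts per 1000000 counts) is scaled with TMM factors over the 12 libraries. Of the markers fixed for clear cell, hypoxia-driven carcinoma, VEGFA was present in all 3 lines, but CA9 lay between 7.11 and 7.26 CPM in the A-498 controls and under 1 CPM in the 786-O and ACHN controls, and NDUFA4L2 was under 1 CPM in 786-O and A-498. The endothelial and leukocyte lists summed to under 1 CPM in every library, so the collagen IV transcripts were read in cultures with defining markers of those cells at or near 0.

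At baseline the lines differed in which partners they made. Levels of different genes are compared per kilobase of exon (CPM per kb). In the 786-O control (1 library) HSPG2 was highest at 53.3 CPM per kb, followed by COL4A1 at 25.7, COL4A2 at 12.5 and NID2 at 12.1, while COL4A5 stood at 1.53 and PXDN at 0.232. In the A-498 controls PXDN led with 65.7 ± 2.16 CPM per kb (SD, n = 2), ahead of COL4A1 at 36.6 ± 1.19, NID1 at 27.8 ± 1.36 and COL4A2 at 25.3 ± 1.47. In the ACHN controls COL4A1 led with 48.9 ± 2.84 CPM per kb (SD, n = 3), ahead of COL4A2 at 36.2 ± 3.53, NID1 at 15.4 ± 0.486 and PXDN at 15.1 ± 0.583. COL4A3 and COL4A6 were among the 4 lowest in each line. In A-498 and ACHN, neighbours in this order had ranges that did not overlap, except COL4A4 and NID2 in A-498 and NID1 and PXDN in ACHN. With the longest transcript in place of all exons, NID1 passed below COL4A2 in A-498 and below PXDN in ACHN, and COL4A4 below NID2 in A-498.

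**Figure D2:**
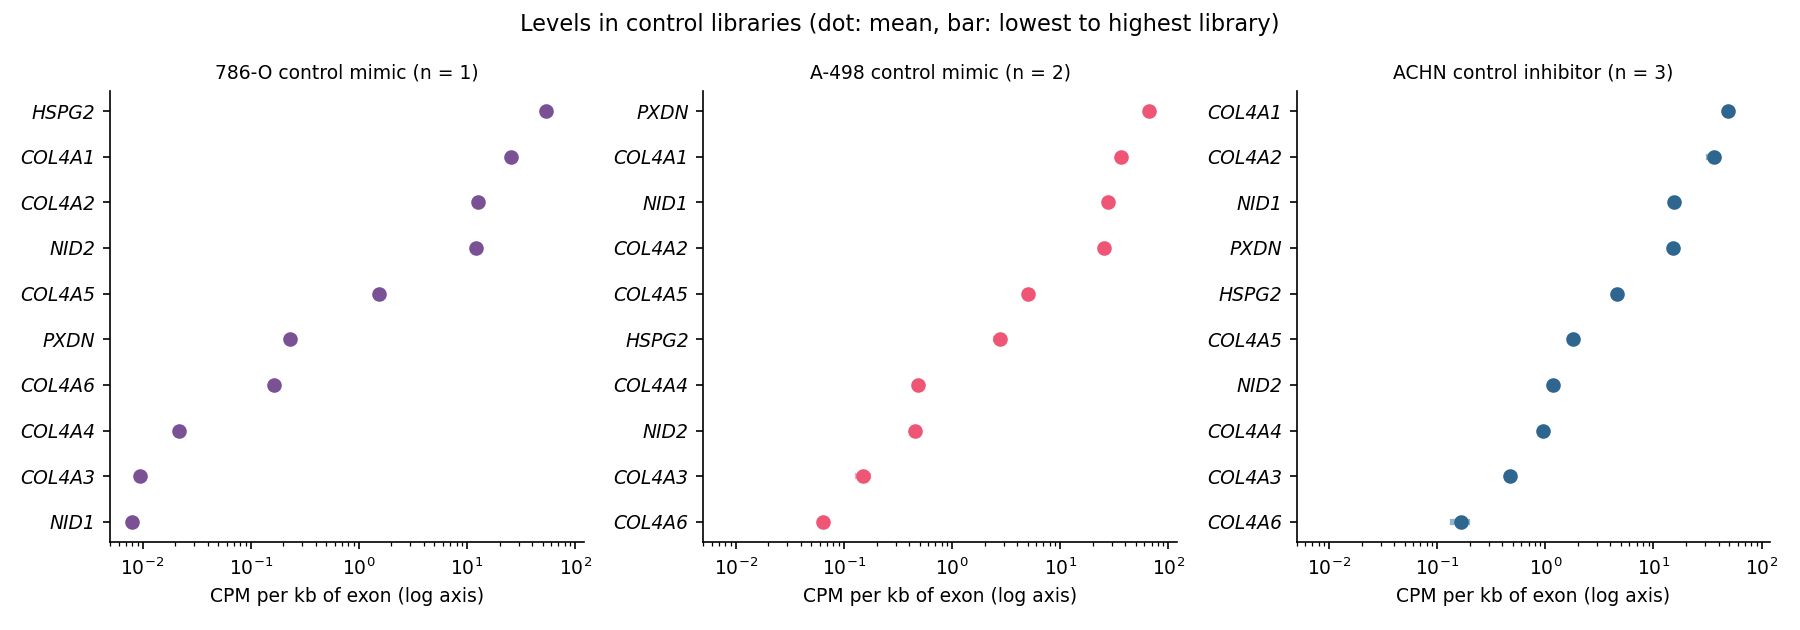
Levels of the 10 genes in control libraries of each line, in CPM per kb of exon on a log axis; dots are means and bars run from the lowest to the highest library. HSPG2 tops 786-O at 53.3, PXDN tops A-498 at 65.7 and COL4A1 tops ACHN at 48.9.

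Levels of the same gene in different lines need no length. NID1 had 2 reads in the 786-O control and 0 in the 786-O mimic library, where 0 reads allow up to 3, against 167 and 156 CPM in the A-498 controls. PXDN stood at 2.62 CPM in the 786-O control, at 757 and 723 CPM in the A-498 controls and at 165, 167 and 177 CPM in the ACHN controls. NID2 and HSPG2 went the other way: NID2 stood at 75.3 CPM in 786-O, 2.72 and 2.97 CPM in A-498 and between 7.05 and 7.45 CPM in ACHN, and HSPG2 at 966, at 53.1 and 46.4, and between 79.5 and 89.5 CPM. The nidogen transcripts of 786-O were thus nearly all NID2, and those of A-498 and ACHN mostly NID1 (27.8 and 15.4 CPM per kb against 0.458 and 1.17 of NID2). The 786-O control has no replicate, and no test was run on it. More of its reads were not assigned to 1 gene (45.7%) than in the A-498 and ACHN controls (37.2% to 40.6%). The line and any such difference between libraries cannot be told apart.

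Between the controls of A-498 and ACHN, all 10 genes were called different (edgeR quasi-likelihood test, Benjamini-Hochberg adjusted p under 0.05 over all genes), but so were 79.8% of the 19689 genes tested, and the line and the kind of control RNA cannot be told apart. PXDN was higher in A-498 by 2.13 on the log2 scale (SE 0.04, adjusted p = 1.29e-20), COL4A5 by 1.48 (SE 0.06) and NID1 by 0.86 (SE 0.04). The other 7 were lower in A-498, with log2 differences from -1.64 for COL4A3 (SE 0.13) and -1.38 for COL4A6 to -0.41 for COL4A1 (SE 0.04). The methods of the study call the A-498 and ACHN libraries of a group biological replicates, without saying how far they were handled apart, and the p-values measure the spread between them.

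With the miR-29 mimic in A-498, 7 of the 10 genes fell: COL4A1, COL4A2, COL4A3, COL4A4, COL4A5, NID1 and PXDN. Among all 19676 genes tested, 27.0% were called lower and 25.5% higher. The median log2 fold change was -1.29 over the 10 genes and 0.00 over all genes tested. The mimic libraries lay entirely below the controls for these 7 genes. How many of all genes had that order was not counted, so it describes these genes and is no further support. In bulk RNA, fewer cells making a transcript and less transcript per cell cannot be told apart.

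COL4A1, which gives more chains than COL4A2 to their common trimer, read 550 and 525 CPM in the A-498 controls and 97.1 and 99.0 CPM with the mimic. Both mimic libraries sat far under both controls, a log2 fold change of -2.44 (SE 0.04, edgeR adjusted p = 1.59e-14). COL4A2, its partner, read 508 and 468 CPM in the controls and 145 and 143 CPM with the mimic. Its fall, -1.75 on the log2 scale (SE 0.04, adjusted p = 6.26e-13), was again many times the gap between replicates.

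Of the chains of the glomerular trimer, COL4A4 read 5.32 and 6.09 CPM in the controls and 0.699 and 1.03 CPM with the mimic. Its log2 fold change of -2.72 (SE 0.16, 95% interval -3.07 to -2.37, adjusted p = 5.65e-09) started from a low level of 297 and 371 reads. Its head-to-head neighbour COL4A3 read 1.65 and 2.05 CPM in the controls and 1.14 and 0.90 CPM with the mimic (log2 fold change -0.84, SE 0.19, adjusted p = 0.00179). COL4A5, whose chain serves both of the less common trimers, fell less: from 61.4 and 59.1 CPM to 35.8 and 37.3 CPM, a log2 fold change of -0.71 (SE 0.05, adjusted p = 2.77e-08).

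COL4A6, the neighbour of COL4A5, did not fall although it carries an 8-nt match. It read 0.627 and 0.558 CPM in the A-498 controls and 1.06 and 0.850 CPM with the mimic, counts of 34 to 70 reads per library. It was called higher (log2 fold change 0.71, SE 0.23, edgeR adjusted p = 0.0200), a call that was lost with DESeq2 (adjusted p = 0.198), without control replicate 3 (adjusted p = 0.0810) and without mimic replicate 1 (adjusted p = 0.187).

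Among the partners, NID1 read 167 and 156 CPM in the A-498 controls and 26.0 and 24.9 CPM with the mimic. Its log2 fold change of -2.66 (SE 0.05, adjusted p = 7.01e-14) was close to that of COL4A1. PXDN read 757 and 723 CPM in the controls and 220 and 218 CPM with the mimic, a log2 fold change of -1.75 (SE 0.04, adjusted p = 1.54e-13), the same to 2 decimals as COL4A2. The other nidogen, NID2, read 2.72 and 2.97 CPM in the controls and 3.39 and 3.03 CPM with the mimic and was not called (log2 fold change 0.19, 95% interval -0.08 to 0.46, adjusted p = 0.237). HSPG2 read 53.1 and 46.4 CPM in the controls and 52.9 and 57.3 CPM with the mimic, groups that overlapped. Its call as higher was narrow (log2 fold change 0.16, SE 0.06, edgeR adjusted p = 0.0451) and was lost with DESeq2 (adjusted p = 0.0949), with 1 fit over all 12 libraries (adjusted p = 0.116), without control replicate 3 (adjusted p = 0.419) and without mimic replicate 2 (adjusted p = 0.346).

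With the miR-29 inhibitor in ACHN, 6 of the 10 genes rose (COL4A1, COL4A2, COL4A4, COL4A5, NID1 and PXDN), 1 fell (HSPG2) and 3 were not called. Among all 17904 genes tested, 17.3% were called higher and 14.4% lower. The median log2 fold change was 0.51 over the 10 genes and 0.00 over all genes tested.

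COL4A1 read 680, 708 and 762 CPM in the ACHN controls and 2034, 2383 and 2164 CPM with the inhibitor. Every inhibitor library held over 2 times the level of every control, a rise of 1.59 on the log2 scale (SE 0.05, edgeR adjusted p = 1.62e-13). COL4A2 read 624, 713 and 758 CPM in the controls and 903, 1128 and 951 CPM with the inhibitor. The groups did not overlap, but the rise was smaller than that of COL4A1 at 0.49 on the log2 scale (SE 0.07, adjusted p = 3.47e-05).

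COL4A4 read 11.3, 10.7 and 11.4 CPM in the controls and 26.4, 27.7 and 28.0 CPM with the inhibitor, a log2 fold change of 1.27 (SE 0.06, adjusted p = 2.38e-11). Its neighbour COL4A3 read 5.68, 5.61 and 6.15 CPM and then 6.18, 7.63 and 6.20 CPM; the groups did not overlap but the gene was not called (log2 fold change 0.17, 95% interval -0.04 to 0.38, adjusted p = 0.211). COL4A5 read between 21.0 and 22.5 CPM in the controls and between 40.2 and 44.8 CPM with the inhibitor (log2 fold change 0.98, SE 0.06, adjusted p = 3.37e-10). COL4A6 read between 1.30 and 1.75 CPM and between 1.47 and 1.70 CPM, ranges of which the second lies inside the first (log2 fold change -0.02, 95% interval -0.35 to 0.30).

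NID1 read 86.4, 89.6 and 92.0 CPM in the ACHN controls and 152, 166 and 157 CPM with the inhibitor, a rise of 0.80 on the log2 scale (SE 0.05, adjusted p = 9.09e-10). PXDN read 165, 167 and 177 CPM and then 238, 258 and 251 CPM (log2 fold change 0.53, SE 0.05, adjusted p = 8.19e-08). For both, the groups were well apart. NID2 read between 7.05 and 7.45 CPM in the controls and between 7.47 and 8.40 CPM with the inhibitor, and was not called (log2 fold change 0.11, 95% interval -0.07 to 0.28, adjusted p = 0.362). HSPG2 read 89.5, 79.5 and 81.8 CPM in the controls and 68.3, 78.4 and 65.5 CPM with the inhibitor. It was the single member called lower, by -0.26 on the log2 scale (SE 0.06, adjusted p = 0.00289), with about 1 CPM between the lowest control and the highest inhibitor library.

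**Figure D3:**
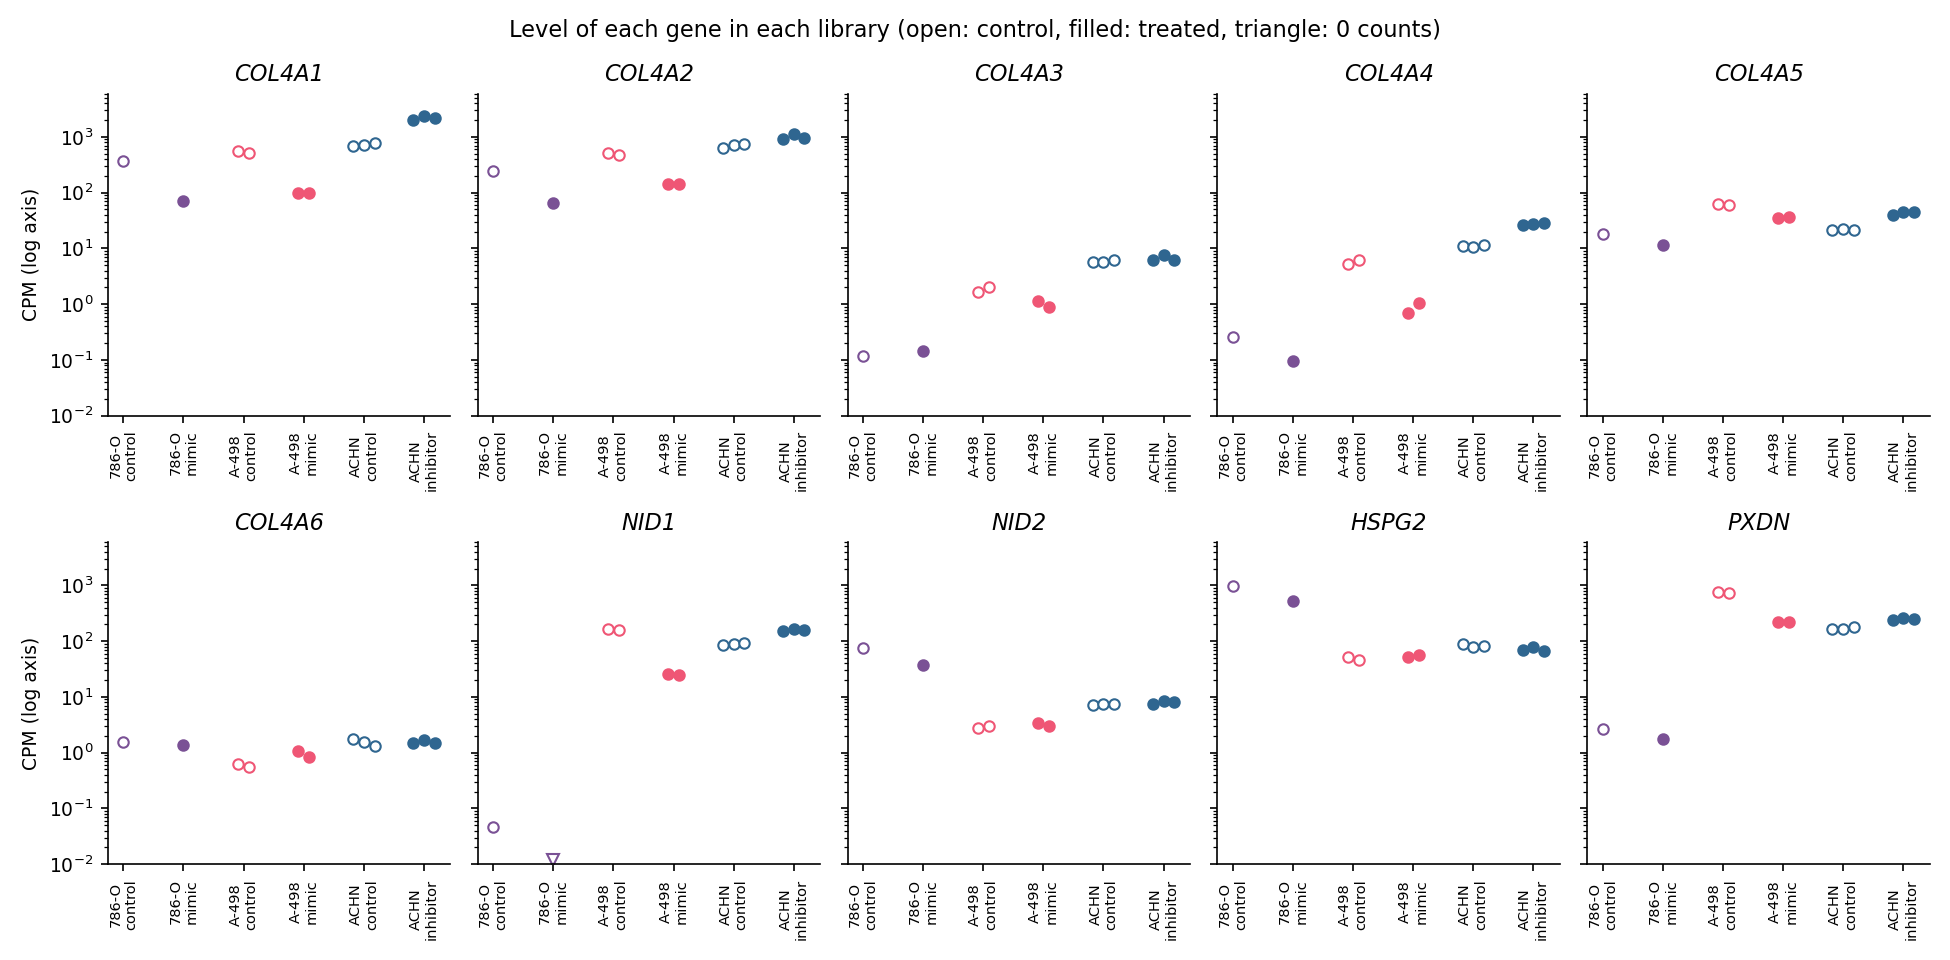
CPM of each gene in each of the 12 libraries on a log axis, open symbols for controls, filled symbols for mimic or inhibitor, and a triangle at the foot of the axis for the library with 0 reads of NID1. COL4A1, COL4A2, COL4A4, COL4A5, NID1 and PXDN drop with the mimic in A-498 and climb with the inhibitor in ACHN. The treated and control symbols of NID2 and HSPG2 lie close together in both lines, and those of COL4A6 do so in ACHN but lie apart in A-498, the mimic symbols on top.

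In 786-O the mimic and control libraries were 1 each, so their log2 ratios carry counting intervals but no test between conditions. NID1 was left out for its 2 and 0 reads. Of the other 9 genes, 8 had a log2 ratio under 0, against 51.0% of the 20370 genes with at least 10 reads. The 8 include COL4A4 and COL4A6, whose counting intervals, given below, include 0. The median ratio was -0.92 over the 9 genes and -0.01 over all genes.

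COL4A1 went from 377 CPM in the 786-O control to 72.1 CPM with the mimic, a log2 ratio of -2.42 (95% counting interval -2.48 to -2.37). COL4A2 went from 242 to 64.8 CPM (log2 ratio -1.94, counting interval -1.999 to -1.877), and COL4A5 from 18.2 to 11.5 CPM (-0.69, counting interval -0.86 to -0.53). HSPG2, the most abundant of the 10 per kilobase in this line, went from 966 to 525 CPM (-0.92, counting interval -0.94 to -0.89). NID2 went from 75.3 to 37.3 CPM (-1.05, counting interval -1.14 to -0.96), and PXDN from 2.62 to 1.73 CPM (-0.62, counting interval -1.08 to -0.20). All of these intervals lie under 0, but they cover counting error only.

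The remaining chains were too sparse in 786-O to read a direction. COL4A3 had 5 and 6 reads, COL4A4 had 11 and 4, and COL4A6 had 66 and 57 in the control and the mimic library. Their counting intervals of -1.72 to 2.31, -3.57 to 0.29 and -0.76 to 0.31 all include 0.

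The mimic was used in both 786-O and A-498, so its effect can be set against itself. The difference of the log2 effects, 786-O minus A-498, was put to the interaction test of edgeR. Each 786-O group is 1 library, so the spread comes from A-498 alone and a difference between the lines is not shown by this test. Of 9 genes, NID1 left aside, 3 passed it, a share near the 29.6% of all genes tested. The log2 effect of the mimic was lower in 786-O than in A-498 by a difference of -1.03 for HSPG2 and -1.19 for NID2, and it was less negative in 786-O for PXDN (difference 1.15). HSPG2 and NID2 are the members that were many times higher in the 786-O control than in A-498, and PXDN is one that was many times lower. COL4A3 and COL4A4 were also many times lower, with few reads in 786-O, and did not pass. A link between these levels and the mimic effect was not tested. With a biological coefficient of variation fixed at 0.2 in place of the A-498 spread, 0 of these differences passed in edgeR, although all 3 had an unadjusted p under 0.05.

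For the chains that both lines express well, the effects were close. The difference was 0.06 for COL4A1 (95% interval -0.08 to 0.21), -0.14 for COL4A2 (-0.30 to 0.02) and 0.06 for COL4A5 (-0.17 to 0.30). COL4A2 passed the same test when the data were scaled to library size (-0.24, adjusted p = 0.0211) and without either A-498 control (adjusted p = 0.00464 and 0.0284).

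**Figure D4:**
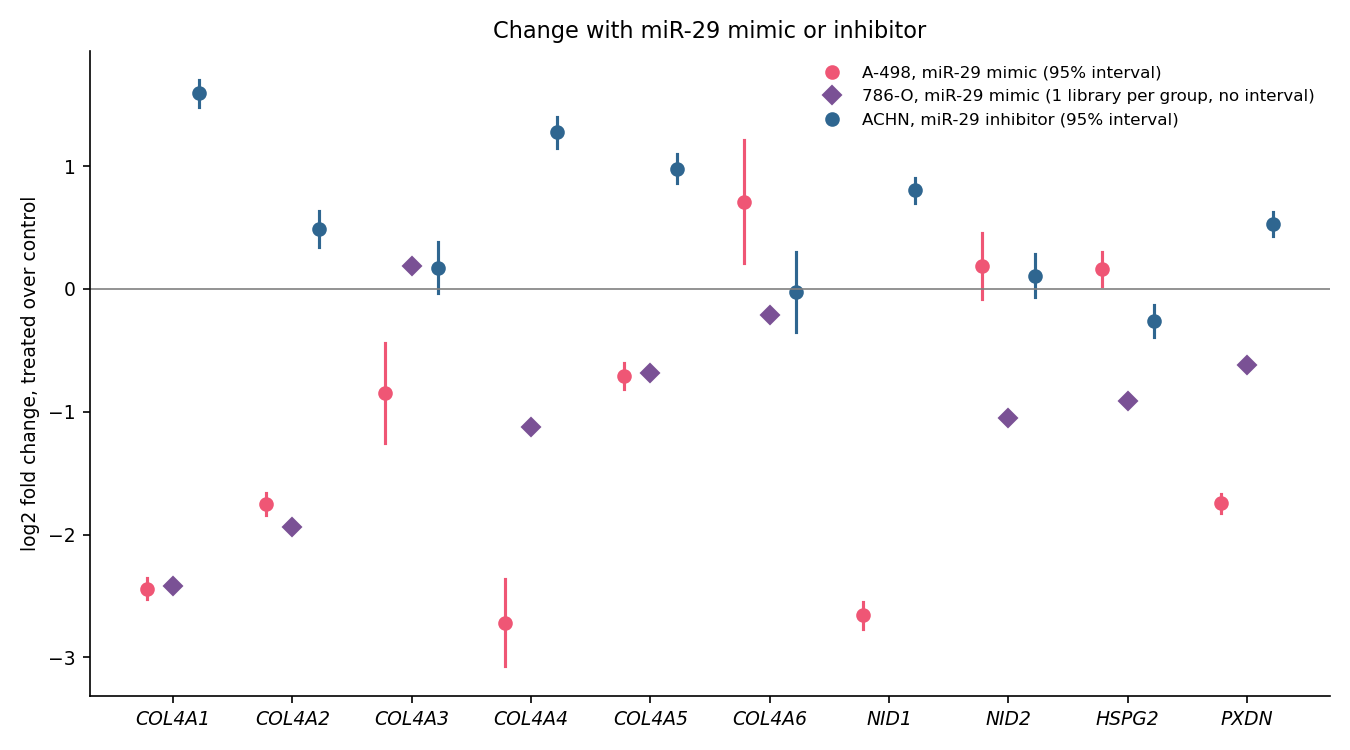
Log2 fold change of treated over control for each gene in A-498 and 786-O (miR-29 mimic) and ACHN (miR-29 inhibitor), with 95% intervals of the edgeR fit for A-498 and ACHN and none for 786-O. The A-498 and 786-O points of COL4A1 nearly coincide at -2.44 and -2.42, and those of HSPG2 and NID2 are about 1 log2 unit apart.

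Lower with the mimic in A-498 and higher with the inhibitor in ACHN, 2 comparisons that share no library, were 6 of the 10 genes, against 10.5% of the 16708 genes tested in both. These were COL4A1, COL4A2, COL4A4, COL4A5, NID1 and PXDN. All of them hold TGGTGCT in the 3′ UTR shown above, the nearest match of each at 28 to 491 nt from the stop codon. The 8-nt match of COL4A6, at 222 nt, lies in the same span. Of the 9 members with TGGTGCT, 7 fell in A-498 and 6 rose in ACHN. Among all genes tested with TGGTGCT in the MANE Select 3′ UTR, 55.7% of 2192 were called lower in A-498 and 41.4% of 2103 higher in ACHN, and among those without it 29.1% of 11473 and 17.7% of 10826. The members with a match that kept out of the pattern were COL4A3, which fell in A-498 but was not called in ACHN, COL4A6 and HSPG2. NID2, which has GGTGCTA but not TGGTGCT, was called in neither line.

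Sums of marker lists moved beside these changes as well. The 5 renal epithelial markers summed to between 1801 and 1955 CPM in the A-498 controls and between 2608 and 2699 CPM with the mimic, and to between 3017 and 3244 CPM in the ACHN controls and 2574 and 2746 CPM with the inhibitor. The 4 fibroblast or mural markers (PDGFRB, PDGFRA, DCN, LUM) summed to between 1.72 and 1.77 CPM in the A-498 controls and 0.667 and 0.851 CPM with the mimic, and to between 1.64 and 2.02 CPM in ACHN controls and 2.93 and 3.69 CPM with the inhibitor. Most of these sums was PDGFRB alone, at 1.54 to 1.63 CPM in the A-498 controls and 0.517 to 0.578 CPM with the mimic. In ACHN it read 1.29 to 1.55 CPM in the controls and 2.24 to 2.99 CPM with the inhibitor. PDGFRA, DCN and LUM stayed under 1 CPM in every A-498 and ACHN library. In 786-O the 4 markers summed to 23.6 and 10.2 CPM, of which LUM made 18.2 CPM in the control. The part of these markers in the collagen IV results was not tested.

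COL4A1 moved more than COL4A2 in each line. The part of transcription or of RNA decay in this was not tested. The log2 difference of COL4A1 minus COL4A2, per kilobase of exon, was 0.51 and 0.56 in the A-498 controls and -0.18 and -0.14 with the mimic. The mimic thus turned the order of the chains, and the change of -0.69 was many times the SD within a group (0.04 and 0.03, n = 2). In ACHN it was 0.52, 0.39 and 0.40 in the controls and 1.57, 1.47 and 1.58 with the inhibitor, a change of 1.11 against SDs of 0.07 and 0.06 (n = 3). The groups did not overlap in either line. An exact two-sided permutation test gave p = 0.33 in A-498 and p = 0.10 in ACHN, in each case the smallest value that so few libraries allow. In 786-O the difference was 1.04 in the control and 0.55 with the mimic. Gene length does not touch the changes but sets the level. With the longest transcript in place of all exons the control means were 0.12 in A-498 and 0.02 in ACHN, close to equal amounts of both chains.

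**Figure D5:**
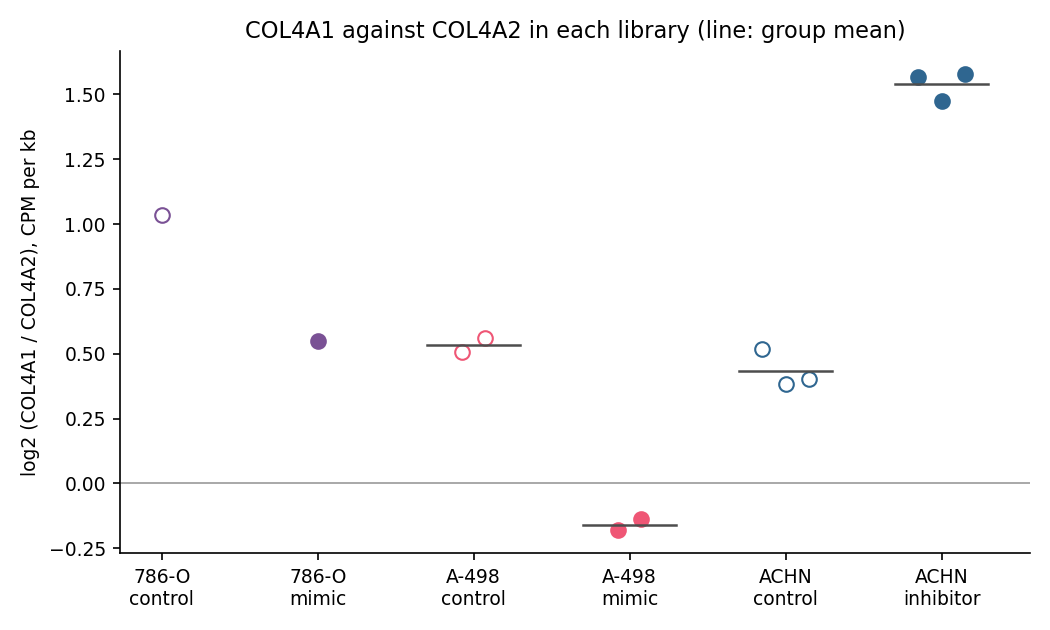
Log2 of COL4A1 over COL4A2, each in CPM per kb of exon, in every library; open symbols are controls, filled symbols are treated and lines are group means. The A-498 mimic libraries lie under 0 (-0.18 and -0.14) and the ACHN inhibitor libraries lie above 1.4.

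The make-up of the collagen IV transcripts shifted with these unequal changes. Summed over the 6 chains, the level was 67.8 ± 2.73 CPM per kb in the A-498 controls and 17.5 ± 0.106 with the mimic (SD, n = 2), and 88.5 ± 6.26 in the ACHN controls and 208 ± 18.4 with the inhibitor (SD, n = 3). COL4A1 and COL4A2 together made 91.5% ± 0.231 of the sum in the A-498 controls and 80.9% ± 0.327 with the mimic (SD, n = 2). COL4A5 made 7.49% ± 0.0943 and 17.6% ± 0.394, so that its share was larger with the mimic although its level was lower. In ACHN the pair made 96.1% ± 0.281 in the controls and 96.8% ± 0.160 with the inhibitor (SD, n = 3), but COL4A1 alone went from 55.3% ± 1.05 to 72.0% ± 0.633. In 786-O the pair made 95.7% in the control and 87.9% with the mimic, and COL4A5 3.83% and 10.3%. The shares depend on the length used. With the longest transcript in place of all exons, COL4A5 made 5.49% in the A-498 controls and 12.9% with the mimic. COL4A1 then made 49.1% in the ACHN controls and 67.1% with the inhibitor, so the directions stayed. No test was run on these shares.

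Other genes of the basement membrane were read from 5 lists with 65 genes: laminin chains, other matrix, folding and cross-linking, receptors, and proteases. In A-498, 31 of the 58 tested were called lower and 12 higher, with a median log2 fold change of -0.33. In ACHN, 33 of 58 were called higher and 6 lower (median 0.23), and in 786-O 42 of 59 had a ratio under 0 (median -0.39). These shares can be set against 27.0% lower and 25.5% higher in A-498 and 17.3% higher and 14.4% lower in ACHN over all genes, and 51.0% under 0 in 786-O.

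The laminin chains, which form the network that nidogens tie to collagen IV, gave 6 lower and 3 higher of 12 in A-498 and 7 higher and 2 lower of 11 in ACHN. The leading gene of each list is the one of largest change among those called whose log2 CPM averaged 3 or more; in A-498 the called genes COL15A1 (2.60), DDR2 (1.75) and MMP2 (-3.30), all under that level, had larger log2 fold changes than the leaders of their lists. LAMC1, the gamma chain of most laminins and the one nidogen binds, had the largest called change of this list in both lines (log2 fold changes -0.97, SE 0.03, and 1.04, SE 0.03). The other matrix genes gave 3 lower and 5 higher of 12 in A-498, a split unlike the other lists, and 7 higher and 1 lower of 13 in ACHN. SPARC, a collagen-binding glycoprotein, led those at that level with -2.35 in A-498 (SE 0.03) and 2.13 in ACHN (SE 0.04).

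Genes for folding, secretion and cross-linking of collagen gave 13 lower and 2 higher of 20 in A-498 and 11 higher and 1 lower of 21 in ACHN. LOXL2, a lysyl oxidase that cross-links collagen IV, had log2 fold changes of -3.58 (SE 0.04) and 0.99 (SE 0.05), the first beyond that of any collagen IV chain. The receptors gave 5 lower and 2 higher of 9 in A-498 and 6 higher and 2 lower of 9 in ACHN, led at that level by ITGB1 (-1.70, SE 0.03), the common beta subunit of collagen- and laminin-binding integrins, and by ITGA2 (0.58, SE 0.05), a collagen-binding alpha subunit. The proteases gave 4 lower and 1 not called of 5 in A-498, and 2 higher and 2 not called of 4 in ACHN. The membrane-bound metalloproteinases MMP15 (-2.19, SE 0.09) and MMP14 (0.64, SE 0.05) led those at that level in A-498 and in ACHN.

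As a description of likeness, the log2 CPM of COL4A1, centred within each line, was set against that of 9921 other genes over the 12 libraries, which pool the 3 lines and both treatments. The closest were SH3BP5L (Pearson r = 0.999), NRBP1 (0.997), ADAM12 (0.997), TRIOBP (0.996) and SETD5 (0.996). Of these, ADAM12 had changes near those of COL4A1 in size, with log2 fold changes of -2.33 in A-498, 1.46 in ACHN and -2.18 in 786-O. Among the members expressed highly enough, r was 0.948 for COL4A2, 0.935 for NID1, 0.927 for COL4A5, 0.921 for PXDN and 0.0429 for HSPG2.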

How the data were processed

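The authors made stranded, ribosomal RNA-depleted libraries, used HISAT2 to align read pairs to GRCh38, and counted reads per gene of Ensembl v87 by HTSeq (strict intersection mode); the deposited counts are not normalized, and the deposited files are marked as counted on the reverse strand. The authors' 3 tables of DESeq2 fold changes and p-values were not used. Reads not assigned to 1 gene stayed out of library sizes. They made 45.7% and 48.0% in the 786-O control and mimic libraries and 37.2% to 40.6% in the A-498 and ACHN libraries. The part of this difference in the contrasts of 786-O with other lines was not tested. Symbols came from GENCODE v44 (98.1% of IDs). Each line was fitted alone with edgeR 4.0.16 in R 4.3.3 (quasi-likelihood, TMM, filterByExpr, called at adjusted p under 0.05), after tests on simulated data. Printed CPM use TMM factors over 12 libraries; 786-O ratios use prior count 2. Exon and transcript lengths came from GENCODE v44. DESeq2 1.42.0, other scaling, filters, a stricter threshold, shared spread and left-out libraries were alternatives. Each pair of replicates differed beyond sampling noise (chi-square over its degrees of freedom, 3.60 to 11.0), and intervals from counts cover counting error only. The members, lists and tests were chosen with earlier results of these data known. All members were named, with, for each list and line, the called gene of largest change (average log2 CPM of at least 3), and the 5 genes most like COL4A1. The sums of the renal epithelial list cover the 5 markers named; a further one is not reported here.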

Additional observations from a re-analysis of the deposited data

Results flagged for a closer look

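The effect of the miR-29 mimic in 3 members passed the interaction test of edgeR between 786-O and A-498. The log2 difference, 786-O minus A-498, was -1.19 for NID2, -1.03 for HSPG2 and 1.15 for PXDN. In 786-O the log2 ratios were -1.05 for NID2, -0.92 for HSPG2 and -0.62 for PXDN, and in A-498 the log2 fold changes were 0.19, 0.16 and -1.75. Each 786-O group is 1 library, so the test lends the A-498 spread to 786-O, whose own spread was not measured, and the values are a description of these libraries. With a coefficient of variation of 0.2 the adjusted p was 0.329 for NID2, 0.440 for HSPG2 and 0.411 for PXDN. The PXDN ratio in 786-O rests on 113 and 73 reads.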

How the results depend on the processing

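The 7 members lower in A-498, the 6 higher and 1 lower in ACHN, the 8 under 0 in 786-O and the 10 that differ at baseline gave the same counts under every alternative run for them, among them library size scaling, no filter, DESeq2, an adjusted p under 0.01, 1 fit over the 12 libraries and each library left out, where they applied. Leaving out an A-498 library leaves a lone sample that is assumed to vary like the rest. The 2 members higher in A-498 (COL4A6 and HSPG2) became 1 with the fit over 12 libraries, 0 in DESeq2 (1 at an unadjusted p under 0.05), 0 in edgeR at an adjusted p under 0.01 (2 at an unadjusted p under 0.05), and from 0 to 2 when single libraries were left out. The 3 differences between 786-O and A-498 became 0 with a coefficient of variation of 0.2, and 3 to 4 without single libraries. Signs turned for values that were not called: COL4A6 in ACHN to 0.074 without control replicate 1 and 0.019 without inhibitor replicate 3 (lowest -0.13 without control replicate 3), and the difference between 786-O and A-498 to -0.033 for COL4A1 and -0.034 for COL4A5 by library size. Without single A-498 libraries that difference ran from -0.034 to 0.078 for COL4A1 and from -0.050 to 0.093 for COL4A5, both lowest without mimic replicate 1. The cause was not tested. The change in COL4A1 minus COL4A2 lay between -0.72 and -0.67 (A-498) and between 1.08 and 1.15 (ACHN) when single libraries were left out, and did not depend on length. With replicate number as a block in ACHN, 6 members were higher and 1 lower; the numbers did not pair the libraries (r of same-numbered deviations from -0.05 to 0.04), and not every library correlated best with its own number. Depth limits COL4A3, COL4A4 and NID1 in 786-O and COL4A6 in each line.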
